A study of Mus musculus with 2 samples.

Results

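The collagen genes of MEFs (mouse embryonic fibroblasts, the connective tissue cells of the embryo grown in culture) were described in a line with Usp16 and a line without it. Members were all genes whose symbol is Col, a number, the letter a and a number, which gave 44 of the 51912 genes in the deposited tables. By the structure of their proteins they were grouped as 11 fibrillar, 9 network, 9 FACIT (fibril-associated collagens with interrupted triple helices), 9 basement membrane and 4 transmembrane collagens, with Col26a1 and Col28a1 outside the 5 classes. The KS group was 1 library of MEFs with wild-type Usp16 (Usp16+/+), and the UKS group was 1 library of MEFs in which floxed Usp16 alleles had been deleted (Usp16-/-). Both lines were on a C57BL/6 background, carried the SV40 large T antigen for immortalization, which binds and disables the tumour suppressors p53 and RB, and had been infected with an adenovirus carrying Cre recombinase. The sources used here do not give embryo age, passage, or how many embryos or clones stand behind each line. The comparison asks how gene expression in such cells differs when Usp16 is deleted.

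Collagens are the main structural proteins of the extracellular matrix, and fibroblasts are their principal source in connective tissue. Each molecule is a helix wound from several alpha chains, which may be copies of a single gene product or come from different genes, so the supply of each chain bears on which molecules can form. Fibrillar collagens build the load-bearing fibres, FACITs sit on the fibre surface, network collagens form beaded filaments or hexagonal lattices, basement membrane collagens lie under and around cells, and transmembrane collagens are anchored in the cell membrane.

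The libraries held 26561637 (KS) and 23205746 (UKS) estimated counts, so 1 count equals 0.0379 and 0.0428 CPM (counts scaled to a common library size, after TMM, a correction for library composition). With 1 library per group nothing could be tested over replicates. Each difference describes these 2 libraries, and brackets hold exact 95% intervals of the ratio of counts, which cover counting error only. Usp16, a deubiquitinase of histone H2A, had 45.3 CPM in KS against 19.7 CPM in UKS, 2.30-fold lower [2.07 to 2.57]. The tables give no counts per exon, so the deleted part of the gene was not examined. The lines also differed in sex-linked transcripts: Xist, made from the inactive X chromosome, had 1 count in KS and 6998 in UKS, and the Y-linked Ddx3y had 1511 and 1. Embryo sex, other differences between the lines and the loss of Usp16 cannot be told apart here. In bulk RNA, fewer cells that express a gene and less RNA of it per cell cannot be told apart either. Of 9 fibroblast markers all were measured, with summed levels of 14583 CPM in KS against 17848 CPM in UKS, of which Fn1 (fibronectin) made up 8995 and 14582 CPM. Thy1, Pdgfra and Ddr2 were 4.71-fold, 2.86-fold and 3.33-fold lower in UKS, Vim was 1.74-fold lower, and Lum, Fbln1, Fn1 and Pdgfrb were 2.35-fold, 1.78-fold, 1.62-fold and 1.39-fold higher, with Cd34 at a ratio of 1.06. Markers of other cell types were low: 1 of 5 endothelial, 1 of 6 epithelial, 1 of 4 blood and 2 of 4 neural crest and glial markers were measured. Each of these lists summed to at most 22.4 CPM in KS against 17.8 CPM in UKS. Ptprc, which defines blood cells, had 2 and 1 counts, and Krt5, Krt14, Adgre1 and Sox10 had none in either library.

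Collagen transcripts as a whole were somewhat less abundant in UKS, while single genes differed in both directions. The 44 genes together took 0.878% of all counts in KS (233134 counts) and 0.727% in UKS (168691 counts). A gene was treated as measured when its mean was at least 1 CPM, and as higher or lower when log2((UKS + 1)/(KS + 1)), with 1 CPM added to each level, was at or past 2-fold. Of the 32 measured collagens 6 were higher in UKS, 6 lower and 20 within 2-fold. Among all 13015 measured genes 5.81% were higher and 10.7% lower. The median log2 ratio was 0.45 over the measured collagens and 0.03 over all measured genes. The collagen median was 0.28 with the trend of length and GC content removed or without the filter on the mean, and 0.27 with 5 CPM added. The higher genes were Col23a1, Col15a1, Col14a1, Col4a6, Col10a1 and Col18a1, and the lower ones Col8a1, Col6a6, Col6a5, Col4a1, Col4a2 and Col11a1. Of the 32, 5 (Col11a2, Col6a5, Col6a6, Col10a1 and Col9a3) lay below 1 CPM in 1 library and reached the mean through the other, so the counts describe but do not support a difference. A further 7 collagens had a CPM ratio above 2 with an interval above 1 and were not counted. Col9a2 and Col25a1 were left out because their mean was below 1 CPM, and Col2a1, Col11a2, Col8a2, Col9a3 and Col17a1 because of the added 1 CPM. All but Col2a1, with a mean of 18.0 CPM, were low.

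**Figure D1:**
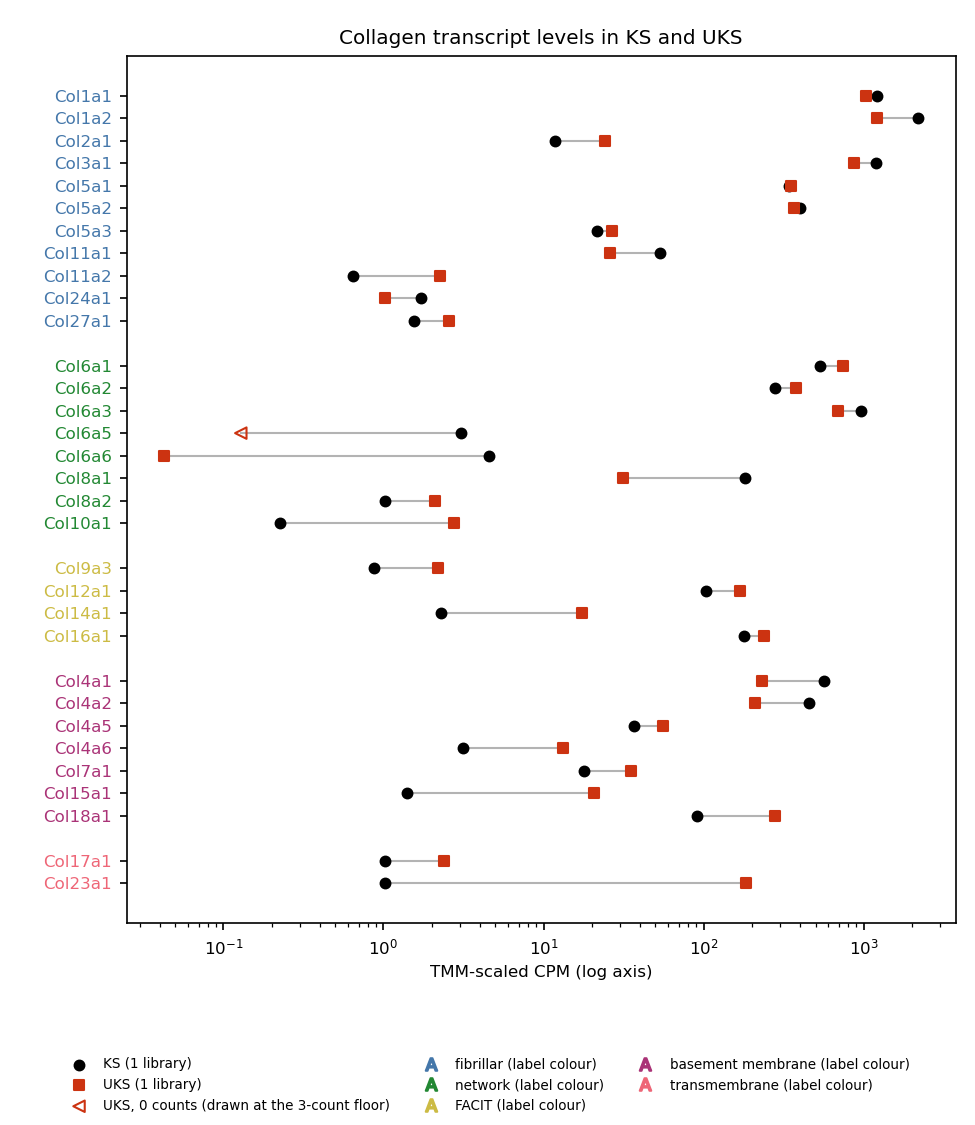
Level of each of the 32 measured collagen genes in TMM-scaled CPM on a log axis, 1 row per gene and 1 symbol per library, with gene names coloured by class. Col1a2 lies at the top in both libraries (2176 and 1202 CPM), and Col23a1 runs from 1.02 CPM in KS to 185.1 CPM in UKS.

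Across the transcriptome, the ratio of UKS over KS was larger for transcripts of higher GC content (Spearman's correlation of the log2 ratio with GC content 0.52 across 13015 genes, which are not independent replicates). Collagen transcripts were long and GC-rich. Over the 32 measured collagens the median transcript was 6083.5 nt with a GC content of 56.3%, against 3158 nt and 49.9% over all measured genes. With the trend of length and GC content subtracted, 8 collagens were higher and 5 lower, against 5.51% and 4.95% of all genes with a value. The call changed for 3 genes: Col12a1 and Col7a1 moved into the higher group and Col11a1 within 2-fold.

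**Figure D2:**
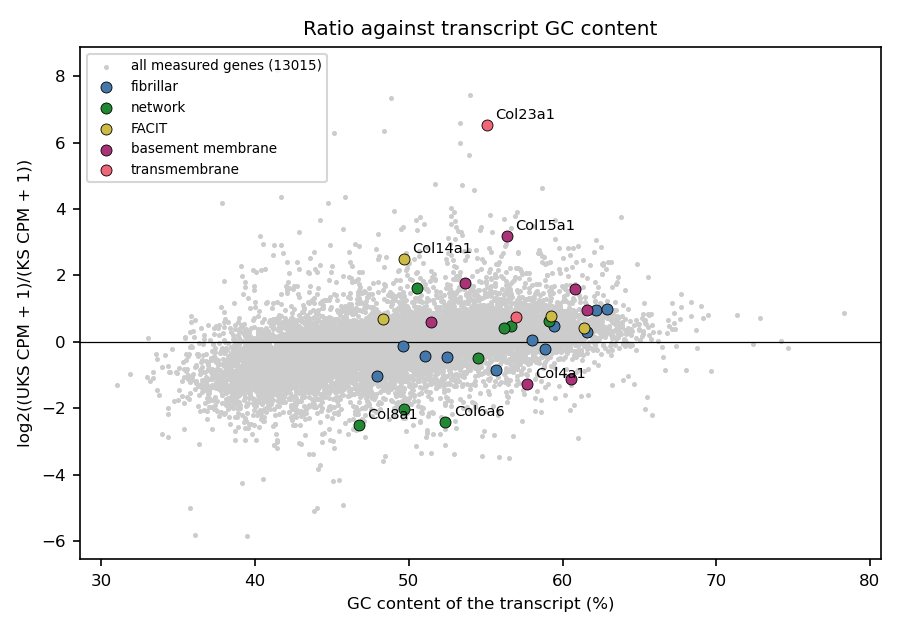
Log2 ratio (UKS over KS, 1 CPM added) against GC content of the transcript in percent, for 13015 measured genes in grey and the measured collagens coloured by class. The collagens occupy GC contents of 46.8 to 62.9% and range from −2.50 (Col8a1) to 6.52 (Col23a1).

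Col1a2, Col1a1 and Col3a1, the major fibril-forming chains, took more counts than any other collagen in both lines and had modestly lower levels in UKS. Of 11 measured fibrillar genes none was higher and 1 was lower, against 5.81% and 10.7% of all measured genes. Their median log2 ratio was −0.11 (0.19 with the trend removed, a change of sign). Summed over the class the level was 5407 CPM in KS against 3916 CPM in UKS, 1.38-fold lower. Col1a2, the alpha2 chain of type I collagen (chromosome 6, 4504814 to 4541544), had 2176 CPM in KS against 1202 CPM in UKS, 1.81-fold lower [1.79 to 1.84]. Its partner Col1a1 (chromosome 11, 94936224 to 94953042) had 1202 and 1039 CPM, 1.16-fold lower [1.14 to 1.18]. Type I collagen is built mostly from a pair of alpha1 chains and a single alpha2 chain, and the 2 transcripts thus differed unequally. Per length (RPKM, CPM per kilobase of transcript) Col1a1 stood at 0.498 of Col1a2 in KS and 0.780 in UKS. These 2 levels depend on the transcript length assumed: with the union of all annotated exons the ratios were 1.05 and 1.64. The change between the libraries does not depend on that choice, since length cancels within a gene.

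Type III and type V collagen, which co-assemble with type I and set fibre width, differed little. Col3a1 had 1199 CPM in KS against 869.7 CPM in UKS, 1.38-fold lower [1.35 to 1.40]. Col5a2, its tail-to-tail neighbour on chromosome 1 at a distance of 24614 nt, had 399.0 and 369.1 CPM. Col5a1, the chain that nucleates fibres together with Col5a2, had 340.9 and 353.1 CPM, a ratio of 1.04 [1.01 to 1.07]. The minor chain Col5a3 had 21.6 and 26.6 CPM. None of these came near 2-fold in either direction.

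The cartilage-type fibrillar collagens differed more, and against each other. Col11a1, a fibre-nucleating chain of type XI collagen, had 53.4 CPM in KS against 25.9 CPM in UKS, 2.06-fold lower [1.87 to 2.27], and its log2 ratio of −1.02 became −0.54 with the trend removed. Col11a2, the partner chain, went the other way from 17 to 53 counts, a ratio of 3.53 [2.01 to 6.49] and a log2 ratio of 0.99. Col11a1 exceeded Col11a2 per length 65.4-fold in KS and 8.99-fold in UKS. Col2a1, the main collagen of cartilage, had 11.9 and 24.2 CPM, a ratio of 2.04 [1.77 to 2.35] and a log2 ratio of 0.97. The developmental fibrillar genes Col24a1 (45 and 24 counts, interval including equal levels) and Col27a1 (41 and 60 counts) were low in both lines.

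Type VI collagen was abundant in both lines, but transcripts of its minor chains were nearly absent from the UKS library. Of 8 measured network collagens 1 was higher and 3 lower, against 5.81% and 10.7% of all measured genes. The median log2 ratio was −0.03 (0.091 with the trend removed). Col10a1, Col6a5 and Col6a6, all past 2-fold, lay below 1 CPM in 1 library and reached the mean through the other. With a mean of at least 5 CPM 0 network genes were higher and 1 lower. The beaded filaments of type VI collagen surround cells and are assembled from the products of Col6a1, Col6a2 and a longer chain, usually that of Col6a3. Col6a1 had 531.7 CPM in KS against 744.8 CPM in UKS, 1.40-fold higher [1.37 to 1.43], and Col6a2, its neighbour on chromosome 10, had 279.9 and 375.7 CPM, 1.34-fold higher [1.30 to 1.38]. Col6a3 had 960.1 and 690.0 CPM, 1.39-fold lower [1.36 to 1.42]. Per length the level of Col6a3 was 0.733 of that of Col6a1 in KS and 0.376 of it in UKS. With the trend removed these 3 genes lay between −0.09 and 0.28 on the log2 scale.

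Col6a5 and Col6a6 encode alternatives to the Col6a3 chain with restricted expression, and lie next to each other on chromosome 9, on the same strand and 27917 nt apart. Col6a6 had 120 counts (4.55 CPM) in KS against 1 count in UKS, a 106-fold difference with a wide interval [18.7 to 4226]. Col6a5 (chromosome 9, 105856078 to 105960643) had 81 counts (3.07 CPM) in KS against none in UKS, 23.9-fold lower against a floor of 3 counts in UKS and at least 19.0-fold lower by the exact 95% bound. Both genes were low in KS and at or below 1 count in UKS, while Col6a4, 28810 nt further on, had 2 and 7 counts. The 250 bases upstream of the RefSeq start of Col6a5 (GRCm38.p6, chr9:105960644-105960893, minus strand) are shown because this gene had no counts in UKS, with a GC box (GGGCGG, the core bound by Sp1-type factors) in capitals.
Col6a5: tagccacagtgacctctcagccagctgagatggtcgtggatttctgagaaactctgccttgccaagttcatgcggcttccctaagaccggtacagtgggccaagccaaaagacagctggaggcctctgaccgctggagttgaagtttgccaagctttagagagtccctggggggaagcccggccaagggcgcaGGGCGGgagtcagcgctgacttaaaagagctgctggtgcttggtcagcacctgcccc

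Of the lattice-forming collagens of types VIII and X, Col8a1 was lower and Col10a1 higher in UKS. Col8a1, a short-chain collagen of vessel walls and the cornea (chromosome 16, 57624258 to 57754737), had 180.8 CPM in KS against 31.2 CPM in UKS, 5.80-fold lower [5.36 to 6.28]. Its log2 ratio was −2.50 as measured and −2.18 with the trend removed. The partner chain Col8a2 had 27 and 49 counts, so Col8a1 exceeded Col8a2 per length 150-fold in KS and 12.6-fold in UKS. Col10a1, the collagen of hypertrophic cartilage (chromosome 10, 34389981 to 34397085), had 6 counts in KS against 64 in UKS, 12.1-fold higher [5.25 to 34.1]. It remained a rare transcript in UKS at 2.74 CPM. The upstream 250 bases of both genes are shown because these genes were past 2-fold in opposite directions and their windows hold different motifs. The Col8a1 window (GRCm38.p6, chr16:57754738-57754987, minus strand) holds 4 GC boxes, read as CCGCCC on this strand, and the Col10a1 window (chr10:34389731-34389980, plus strand) holds a TATAAA box 32 bases before the start. Capitals mark these matches. GGGCGG was also in windows of the lower genes Col11a1, Col4a2, Col6a5 and Col6a6 and of the higher genes Col23a1, Col18a1 and Col4a6. It was absent from those of Col4a1 (lower) and Col15a1 (higher). TATAAA was also in windows of Col3a1, Col11a2 and Col17a1, which were within 2-fold, and of Col13a1, which was not measured.
Col8a1: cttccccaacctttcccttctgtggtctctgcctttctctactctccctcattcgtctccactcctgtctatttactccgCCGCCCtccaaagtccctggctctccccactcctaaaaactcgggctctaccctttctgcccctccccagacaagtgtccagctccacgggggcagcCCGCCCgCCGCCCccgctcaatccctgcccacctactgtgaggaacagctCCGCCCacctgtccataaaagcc
Col10a1: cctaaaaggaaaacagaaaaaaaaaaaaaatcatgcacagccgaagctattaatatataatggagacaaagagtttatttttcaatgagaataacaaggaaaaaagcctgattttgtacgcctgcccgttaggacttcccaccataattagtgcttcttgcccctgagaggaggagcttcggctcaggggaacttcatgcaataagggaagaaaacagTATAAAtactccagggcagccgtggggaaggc

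Markers of skeletal cell types were looked at beside Col2a1, Col10a1, Col11a2 and the type IX genes, which cartilage makes in quantity. Of 8 chondrocyte markers found, 1 was measured, the transcription factor Sox9, at 24.5 CPM in KS against 51.2 CPM in UKS. The 8 markers summed to 25.6 and 52.9 CPM, nearly all of it Sox9, and Acan (5 and 9 counts), Comp (10 and 9 counts), Hapln1 (4 and 6 counts) and Cnmd (0 and 1 counts) were near the floor in both lines. Of 8 osteoblast markers 3 were measured, with sums of 5266 and 8885 CPM that were almost wholly Spp1. The osteoblast factor Sp7 had 16 and 192 counts, Alpl 2 and 26, Bglap2 2 and 17, Ibsp none, and Runx2 was 1.69-fold lower. Sox9, Sp7, Alpl and Bglap2 thus had higher levels in the same library as Col2a1, Col10a1 and Col11a2, but Alpl and Bglap2 had means below 1 CPM. Runx2 and Col11a1 had lower levels in that library, and the chondrocyte markers other than Sox9 were near the floor. Any part of the markers in the collagen differences was not tested.

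The measured FACITs had more transcript in UKS. Of 9 members 4 were measured. All 4 had a ratio above equality, against 51.9% of all measured genes, and 1 was higher, against 5.81%. The median log2 ratio was 0.73 (0.93 with the trend removed). Col9a3, at 0.871 CPM in KS, reached the mean through UKS, so its ratio describes but does not support a difference. Summed over the 9 genes the class had 286.3 CPM in KS against 428.7 CPM in UKS. Col14a1, a fibre-surface collagen of dense connective tissue (chromosome 15, 55307750 to 55520803), had 60 counts (2.27 CPM) in KS against 407 counts (17.4 CPM) in UKS, 7.67-fold higher [5.84 to 10.2]. Col12a1, a related collagen found on fibres under tension, had 104.1 and 169.7 CPM, 1.63-fold higher [1.55 to 1.71]. Its transcript is the longest of the measured collagens at 11511 nt, and the log2 ratio of 0.70 became 1.46 with the trend removed. Col16a1 had 178.4 and 238.5 CPM, 1.34-fold higher [1.29 to 1.39]. Col9a3, a type IX chain, had 23 and 51 counts, and its partner Col9a2 had 4 and 15 counts. The third type IX gene, Col9a1, had no counts in either library, which allows up to 0.114 CPM in KS against 0.128 CPM in UKS.

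Basement membrane collagens split by chain. Of 9 members 7 were measured, 3 higher and 2 lower, against 5.81% and 10.7% of all measured genes. The median log2 ratio was 0.95 (1.16 with the trend removed). The summed level nevertheless was 1173 CPM in KS against 844.3 CPM in UKS, 1.39-fold lower, because the most abundant members were the ones that were lower. Col4a1 (chromosome 8, 11198423 to 11312826), which with Col4a2 forms the type IV network of nearly all basement membranes, had 564.6 CPM in KS against 232.2 CPM in UKS, 2.43-fold lower [2.36 to 2.51]. Col4a2 (chromosome 8, 11312805 to 11449287) had 458.0 and 209.4 CPM, 2.19-fold lower [2.12 to 2.26]. The pair lies head to head with annotated starts that overlap by 22 nt. Col4a1 exceeded Col4a2 per length 1.20-fold in KS and 1.08-fold in UKS, so the 2 chains were lower to nearly the same extent. Their log2 ratios of −1.28 and −1.13 were −1.26 and −1.16 with the trend removed.

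The X-linked type IV genes went the opposite way. Col4a6 (X chromosome, 141165403 to 141474076), which joins Col4a5 in the basement membranes of smooth muscle and skin, had 83 counts (3.14 CPM) in KS against 307 counts (13.1 CPM) in UKS, 4.18-fold higher [3.27 to 5.40]. Col4a5 had 36.5 and 56.0 CPM, 1.53-fold higher [1.41 to 1.67]. This pair too is head to head, with 1308 nt between the genes, and yet the members differed unequally: Col4a5 exceeded Col4a6 per length 11.8-fold in KS and 4.33-fold in UKS. Both genes are on the chromosome for which the 2 lines differ in Xist, and that difference was not separated from theirs. The remaining pair, Col4a3 (5 and 2 counts) and Col4a4 (21 and 9 counts), which belongs to kidney and lung, was below the level at which genes were treated as measured.

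Of the collagens that link basement membranes to the matrix around them, Col15a1 and Col18a1 were higher in UKS and Col7a1 lay just within 2-fold. Col15a1 and Col18a1 encode the multiplexins, collagens that carry heparan or chondroitin sulfate chains, and Col18a1 is the source of the fragment endostatin. Col15a1 (chromosome 4, 47208161 to 47313167) had 37 counts (1.40 CPM) in KS against 483 counts (20.7 CPM) in UKS, 14.8-fold higher [10.6 to 21.2]. Col18a1 (chromosome 10, 77052178 to 77166548) had 90.6 and 277.1 CPM, 3.06-fold higher [2.92 to 3.21], and ranked above Col4a1 and Col4a2 per length in UKS (49.5 against 35.1 and 32.5 RPKM) but below them in KS (16.2 against 85.4 and 71.0 RPKM). Col7a1, which forms the anchoring fibrils of skin, had 17.8 and 35.3 CPM, a ratio of 1.99 [1.77 to 2.23] and a log2 ratio of 0.95 that was 1.16 with the trend removed.

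Col23a1 had the highest ratio among the collagens. It encodes a transmembrane collagen whose outer part can be shed from the cell surface. Col23a1 (ENSMUSG00000063564; chromosome 11, 51289920 to 51583918) had only 27 counts (1.02 CPM) in KS against 4321 counts (185.1 CPM) in UKS, 181-fold higher [124 to 275]. Per length it ranked 30th of the 44 collagens in KS at 0.181 RPKM and 12th in UKS at 32.7 RPKM. Per length the level in UKS was close to that of Col4a1 (35.1 RPKM) and Col4a2 (32.5 RPKM) in the same library. The log2 ratio of 6.52 was 6.51 with the trend removed. The other transmembrane collagens stayed rare: Col17a1, a hemidesmosome component of epithelia, had 27 and 56 counts, Col25a1 had 8 and 36 counts, and Col13a1 had none in either library. The 250 bases before the RefSeq start of Col23a1 (GRCm38.p6, chr11:51289670-51289919, plus strand) are shown as the start region of the gene with the highest ratio, with the GC box in capitals, read as CCGCCC on this strand.
Col23a1: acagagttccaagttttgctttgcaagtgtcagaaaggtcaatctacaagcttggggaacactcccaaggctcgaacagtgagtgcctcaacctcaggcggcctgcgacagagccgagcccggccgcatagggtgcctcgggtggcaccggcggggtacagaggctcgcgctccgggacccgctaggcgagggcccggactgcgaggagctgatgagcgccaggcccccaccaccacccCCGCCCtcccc

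Upstream windows of 250 bases were available for 35 of the 44 collagens in 38 RefSeq entries, and were searched on both strands. GGGCGG was present in 22 of the 38 windows, against 32.7% of 32851 windows of all genes. The collagen windows had a higher median GC content, 59% against 52.4% over all windows, and matches were not compared at equal GC content. CCAAT was present in 13 of 38 (33.8% of all windows), TATAAA in 5 (12.4%), TGANTCA, the AP-1 site, in 1 (6.75%), the NF-kB consensus in 4 (3.90%) and the SRF CArG box in 1 (1.47%). The 4 windows with the NF-kB consensus belonged to Col9a1, Col27a1, Col9a2 and Col6a4, of which only Col27a1 was measured, within 2-fold. A match gives only letters in a window and was not read as a binding site.

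**Figure D3:**
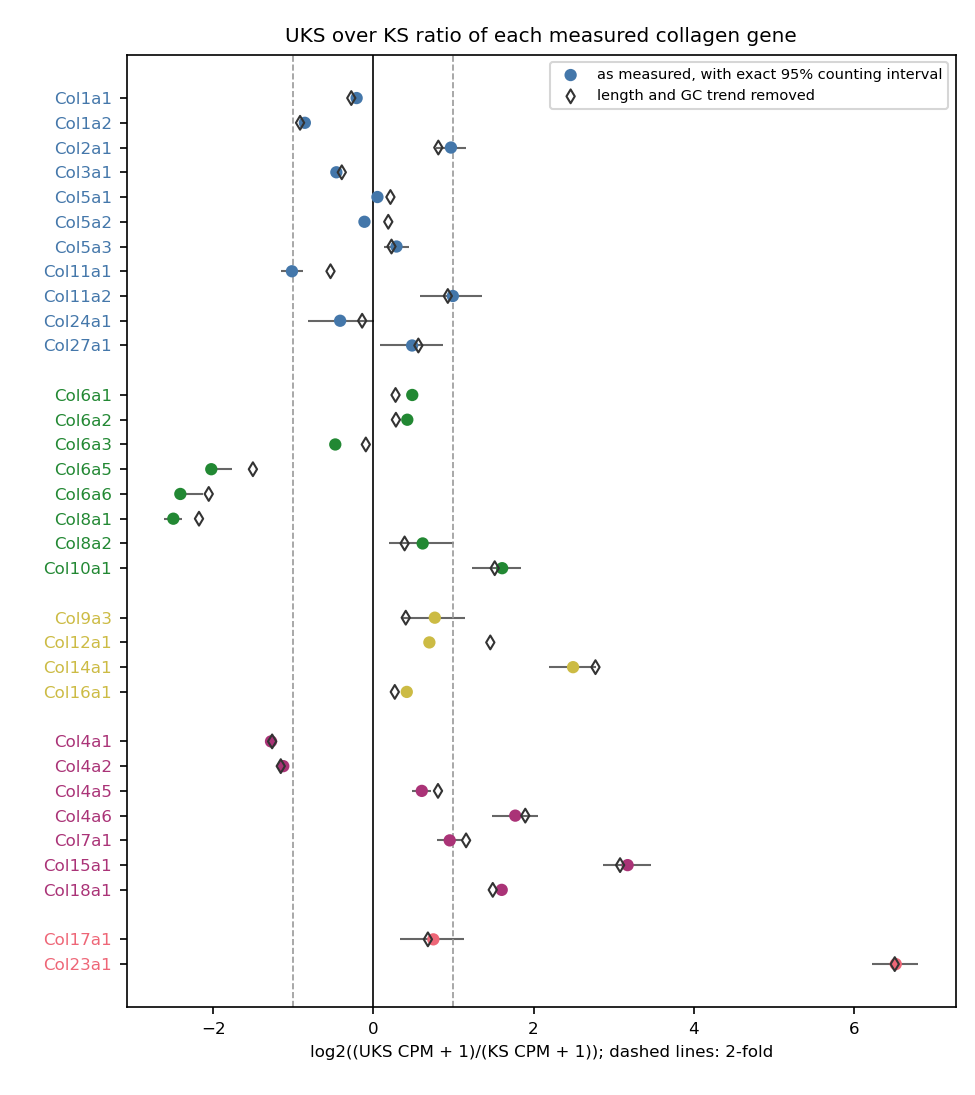
Log2 ratio of UKS over KS (1 CPM added) for each measured collagen gene, filled circles coloured by class with exact 95% counting intervals as bars, open diamonds after removal of the length and GC trend, and dashed lines at 2-fold. The fibrillar genes lie between −1.02 and 0.99, whereas the network and basement membrane classes hold genes beyond 2-fold on both sides.

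Partner chains of 1 collagen type often differed unequally, as the plot of ratios shows. Within types VIII and XI the abundant chain was lower and the rare chain had a ratio above 1. Within type VI the ratios of Col6a3, Col6a5 and Col6a6 were below 1 and those of Col6a1 and Col6a2 above it. Col6a4, below a mean of 1 CPM, had 2 and 7 counts, a ratio of 3.96 with an interval including equality. With the trend removed the log2 ratio of Col6a3 was −0.09. Neighbouring genes of similar ratio included Col4a1 and Col4a2 (0.411 and 0.457 in CPM) and Col6a1 and Col6a2 (1.40 and 1.34). The neighbours Col6a5 and Col6a6 were both at or below 1 count in UKS. Col4a3 and Col4a4, below a mean of 1 CPM, had ratios of 0.452 and 0.485 with intervals including equality. Col3a1 and Col5a2, also neighbours, had ratios of 0.726 and 0.925, and the head-to-head neighbours Col4a5 and Col4a6 had ratios of 1.53 and 4.18.

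Per length, fibrillar and basement membrane collagens held a smaller share of collagen transcripts in UKS, and the other 3 classes a larger one. Fibrillar collagens made up 63.2% of the summed collagen RPKM in KS and 53.9% in UKS. Network collagens made up 21.6% and 27.3%, FACITs 2.97% and 5.19%, basement membrane collagens 12.2% and 10.9%, and transmembrane collagens 0.0275% and 2.69%. The transmembrane share is nearly all Col23a1. The summed collagen RPKM was 1486 in KS and 1239 in UKS. By the length of the longest coding transcript Col1a2 ranked first in both libraries (407 and 225 RPKM). Col3a1 (215 RPKM) and Col1a1 (203 RPKM) came next in KS, and Col6a1 (182 RPKM) and Col1a1 (175 RPKM) in UKS. By the union of exons the order was another: Col1a1 (183 RPKM) lay above Col1a2 (175 RPKM) in KS, and in UKS Col6a1 (170.0 RPKM) and Col1a1 (158 RPKM) lay above Col1a2 (96.7 RPKM).

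**Figure D4:**
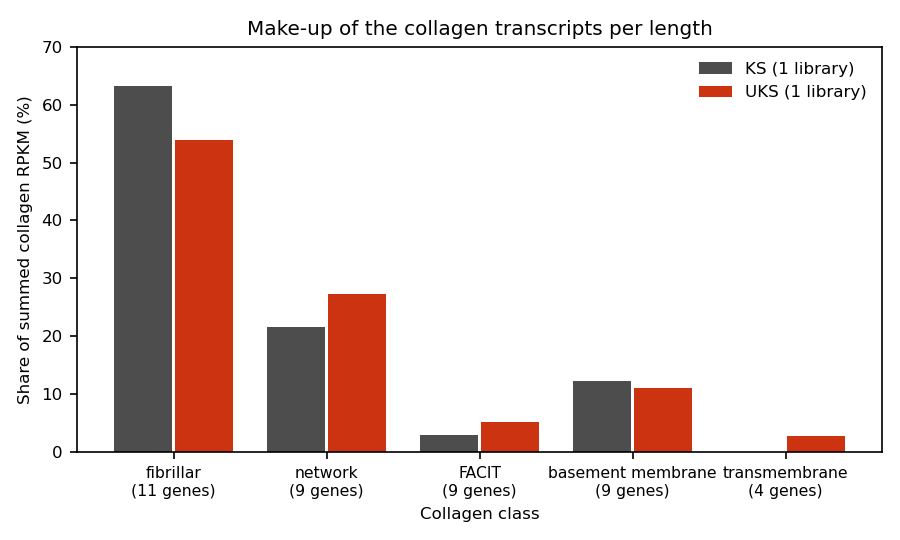
Share of the summed collagen RPKM in percent held by each class, 1 bar per library (KS grey, UKS red). Fibrillar collagens go from 63.2% in KS to 53.9% in UKS and network collagens from 21.6% to 27.3%, while the transmembrane class is visible only in UKS (2.69%).

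The remaining 12 collagens were below a mean of 1 CPM. Of these, 10 had counts in at least 1 library, with a highest value of 36. Besides those given above they were Col19a1 (5 and 4 counts), Col20a1 (6 and 1), Col22a1 (1 and 1), Col26a1 (0 and 1) and Col28a1 (18 and 10). Col25a1 (ratio 5.09 [2.33 to 12.7]) and Col9a2 (4.24 [1.35 to 17.6]) had intervals above equality, and for the other 8 a difference was not detectable at this depth.

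Genes that make, export, process, bind and break down collagen were followed as 6 lists with 60 members, of which 52 were measured, 6 higher (11.5%) and 5 lower (9.62%), against 5.81% and 10.7% of all measured genes. Their median log2 ratio was 0.16. Among the genes past 2-fold, Mmp9 in KS (0.189 CPM) and Tll1 (0.985 CPM) and Fap (0.685 CPM) in UKS lay below 1 CPM. They reached the mean through the other library, so the counts describe but do not support a difference. The enzymes that modify procollagen in the endoplasmic reticulum mostly lay a little above equality. Of 14 measured modifying enzymes 13 had a ratio above equality, against 51.9% of all measured genes, 1 was higher and none lower, with a median log2 ratio of 0.46 (0.17 with the trend removed). P4hb, the shared subunit of the prolyl 4-hydroxylases and a disulfide isomerase, had 858.7 CPM in KS against 1306 CPM in UKS. The cyclophilin Ppib had 228.1 and 366.8 CPM, 1.61-fold higher [1.56 to 1.66], and P3h4, a partner of lysyl hydroxylase, was 1.56-fold higher. P3h2, a prolyl 3-hydroxylase, was 2.23-fold higher [1.80 to 2.76] with a log2 ratio of 1.02 that was 0.85 with the trend removed, and it was also within 2-fold with DESeq2 size factors or 5 CPM added.

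None of 11 folding and export genes was past 2-fold (median 0.08), against 16.5% of all measured genes. With the trend removed 1, Tmem38b, was higher. The collagen chaperone Serpinh1 had 701.5 and 778.1 CPM, and the prolyl isomerase Fkbp10 245.9 and 307.8 CPM. Creb3l1, a transcription factor that drives type I collagen genes in bone, was 1.85-fold higher [1.68 to 2.03], and the ion channel Tmem38b was 1.81-fold higher, a log2 ratio of 0.80 that was 1.26 with the trend removed. Mia3 and Ctage5, which load large procollagens into transport carriers, were 1.49-fold and 1.65-fold lower.

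The proteases that trim procollagen ends and their enhancer proteins diverged. Of 6 measured members 1 was higher and 2 lower (median −0.09), against 5.81% and 10.7% of all measured genes. The higher one was the enhancer protein Pcolce2, and no measured protease of the list was higher. Tll1, a tolloid-like protease that removes carboxy-terminal propeptides, had 246 counts in KS against 23 in UKS, 9.46-fold lower [6.16 to 15.2]. Adamts14, an amino-propeptidase, had 62.5 and 18.8 CPM, 3.32-fold lower [2.99 to 3.70]. Bmp1, the main carboxy-propeptidase, was 1.52-fold higher at 191.3 and 290.7 CPM. Its enhancer Pcolce had 574.8 and 567.5 CPM, a ratio whose interval included equality, and the rarer Pcolce2 was 2.69-fold higher (47 and 112 counts).

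Among 6 crosslinking enzymes 1 was higher and none lower (median −0.17), against 5.81% and 10.7% of all measured genes. The transglutaminase Tgm2 had 5.19 CPM in KS against 39.7 CPM in UKS, 7.64-fold higher [6.38 to 9.21]. The lysyl oxidases, which crosslink collagen and elastin, were level or lower. Lox had 288.2 and 165.6 CPM, 1.74-fold lower [1.67 to 1.81], Loxl3 was 1.27-fold and Loxl2 1.18-fold lower, and Loxl1 had 497.3 and 460.9 CPM.

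Of 8 measured collagen receptors 1 was higher and 1 lower (median 0.11), against 5.81% and 10.7% of all measured genes. Ddr2, a receptor tyrosine kinase for fibrillar collagen, had 508.2 CPM in KS against 152.6 CPM in UKS, 3.33-fold lower [3.21 to 3.46], and its log2 ratio of −1.73 was −0.99 with the trend removed. Its relative Ddr1 was 1.58-fold higher at 37.2 and 58.9 CPM. The integrin subunit Itga2 had 34 and 106 counts, 3.53-fold higher [2.38 to 5.35], and the common partner Itgb1 had 993.0 and 721.7 CPM. The collagen uptake receptor Mrc2 had 444.2 and 472.8 CPM.

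Of 7 measured genes of collagen breakdown 2 were higher and 2 lower (median −0.01), and 2 and 1 with the trend removed (median −0.30). The collagenase Mmp13 had 36 and 395 counts, 12.4-fold higher [8.81 to 18.0], and the gelatinase Mmp9 5 and 173 counts, 39.1-fold higher [16.4 to 122]. The abundant gelatinase Mmp2 had 373.0 and 731.2 CPM, a log2 ratio of 0.97. Mmp14, which activates Mmp2 at the cell surface, had 620.6 and 593.4 CPM. Ctsk, a lysosomal collagenase, had 56.4 and 15.8 CPM, 3.57-fold lower [3.18 to 4.01], and the surface protease Fap had 71 and 16 counts, 3.92-fold lower [2.26 to 7.23]. The log2 ratio of Fap went from −1.13 to −0.71 with the trend removed, and with 5 CPM added 1 gene of the list was lower.

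**Figure D5:**
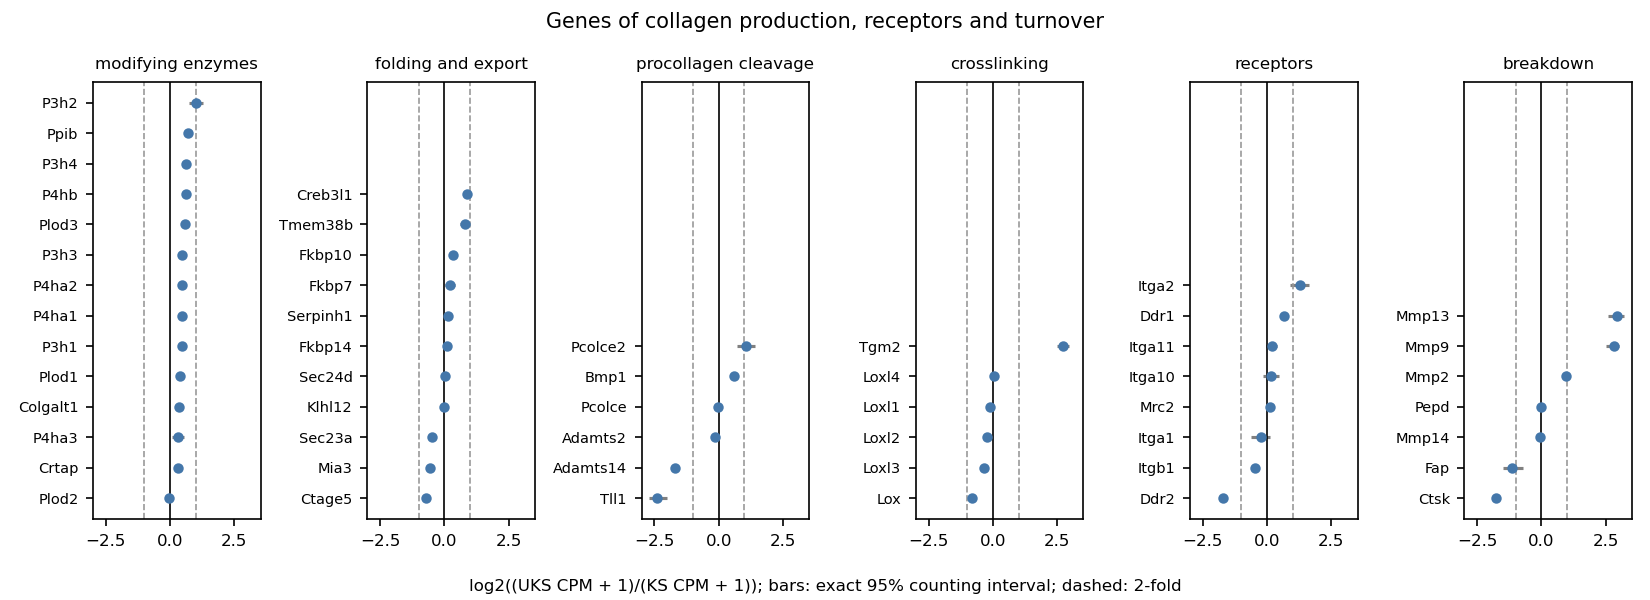
Log2 ratio of UKS over KS (1 CPM added) for the 52 measured genes of the 6 lists, 1 panel per list, with exact 95% counting intervals as bars and dashed lines at 2-fold. The modifying enzymes form a narrow column between −0.03 and 1.02, with P3h2 just past 2-fold. The cleavage, crosslinking, receptor and breakdown panels each hold genes farther beyond 2-fold, and the folding and export panel holds none.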

How the data were processed

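RNA was measured in 2 MEF libraries, 1 per group, and sample titles gave the groups. Total RNA (TRIzol) went into TruSeq RNA libraries from Illumina, per the labels' protocols. The submitters' processing notes list HISAT2, StringTie and GRCm38.p5 with neither role nor version. How reads were counted, with which annotation and whether by strand, is not stated in the sources used here. The 2 deposited tables hold estimated counts (expected counts, not all whole) per gene, made by the authors and rounded here to whole numbers. Without known strand, reads of overlapping genes cannot be told apart: 13 of 44 collagens share exon bases with another gene, at most 6.07% of their exons.

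TMM factors (0.994 and 1.01) came from edgeR 4.0.16 and size factors from DESeq2 1.42.0 in R 4.3.3, and intervals from scipy 1.17.1. GENCODE M21 (GRCm38) gave coordinates, GC content and transcript length (longest coding transcript), and it holds 51719 of the 51912 gene identifiers. The length and GC trend was a robust regression (statsmodels 0.14.6) on genes in no list, for 12997 genes. The promoter windows are RefSeq's, on GRCm38.p6. The steps were tested on simulated data. Members, lists and alternatives were chosen with earlier results of these data known. Every collagen is accounted for. Of each other list the rule named up to 4 members whose ratio lay farthest from equality and the 2 of highest level, and further marker genes were named after their values were seen. Both lines share another engineered alteration, which is not reported here.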

Additional observations from a re-analysis of the deposited data

How the results depend on the processing

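The settings tried were DESeq2 size factors, library totals alone, pseudocounts of 0.25 and 5 CPM, no filter and a mean of at least 5 CPM, removal of the length and GC trend, unrounded counts and the union of exons as length. No collagen past 2-fold changed sign under any of them. Of the 32 measured collagens all kept their side of 2-fold with DESeq2 size factors, without a filter and with unrounded counts, 30 with library totals alone, 28 with either pseudocount and 29 with the trend removed. With a mean of at least 5 CPM 23 were left, and all 23 kept theirs. The filter decides which genes are listed and leaves each ratio as it is, so no call could change under either filter setting. The length used does not enter the ratios either.

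With a pseudocount of 0.25 CPM 10 collagens were higher, of which fibrillar 2, FACIT 2 and transmembrane 2, with a transmembrane median of 4.12. With 5 CPM 3 collagens were lower, with fibrillar 0 lower, network 0 higher and 1 lower and a transmembrane median of 2.64, and 3 collagen-making genes were higher. Library totals alone gave 1 fibrillar gene higher and 0 lower. With the trend removed 0 fibrillar genes were lower and 2 FACITs higher, the medians were 0.19 (fibrillar), 0.091 (network) and 1.16 (basement membrane), and 3 collagen-making genes were lower. Without a filter the medians were 0.27 (network), 0.46 (FACIT), 0.60 (basement membrane) and 0.96 (transmembrane). A mean of at least 5 CPM gave medians of −0.16 (fibrillar) and 6.52 (transmembrane), network 0 higher and 1 lower, and 3 collagen-making genes higher. Over all measured genes 756 were higher and 1396 lower, 412 and 836 with 5 CPM, and 644 lower with the trend removed. The pseudocount and the filter act on low genes by construction, and the cause of the other shifts was not tested.

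With the union of exons as length, fibrillar collagens made up 55.4% (KS) and 47.4% (UKS) of collagen RPKM and network collagens 25.2% and 30.5%. Summed collagen RPKM in UKS was 0.834 of that in KS, and 0.817 with DESeq2 size factors, 0.844 with library totals alone and 0.886 with the union length. No paired analysis was possible because each group has 1 library, and leaving out a library was not possible for the same reason.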
